A study of Mus musculus with 4 samples.

Results

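The genes described here are the Wnt ligands, their Frizzled and Lrp receptors, the secreted Sfrp, Dkk and Wif1 inhibitors, and intracellular scaffolds, feedback regulators and nuclear effectors of the pathway. They were chosen by symbol (every Wnt, Fzd, Sfrp and Dkk gene followed by a number, plus 15 named genes) and comprise 52 of the 24442 genes in the count table. RNA was sequenced from cells sorted by flow cytometry from mammary glands of 5-week-old female mice carrying the Lgr6-eGFP-CreErt2 allele, in which a green fluorescent protein and an inducible recombinase report the Lgr6 locus. Lgr6-positive cells were compared with Lgr6-negative cells, neither of them treated, at 2 libraries per population. Mice of both populations carried the allele, and the sort started from cells negative for lineage markers, whose identity is not given in the sources used here. Whether replicates came from separate animals is not stated either, so the spread behind each p-value is that between these libraries and may be technical.

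Wnt proteins are secreted lipid-modified ligands that bind a Frizzled receptor. With the co-receptor Lrp5 or Lrp6 this stabilises beta-catenin, which enters the nucleus and binds transcription factors of the TCF/LEF family, while other ligand and receptor pairs act without beta-catenin. In the mammary gland, Wnt4 is known as a ligand made by hormone-sensing luminal cells under progesterone, and Wnt5a as a ligand that mostly acts without beta-catenin. Lgr6 belongs to a family of receptors for R-spondins, which keep Frizzled receptors on the cell surface.

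Depth was similar, at 6819127 and 6995568 counts for Lgr6-positive libraries against 6920996 and 7167465 for Lgr6-negative ones. The ribosomal RNA precursor Rn45s took 17.2% and 14.5% against 18.7% and 30.8% of these counts. Genes with counts numbered 14144 and 11959 in Lgr6-positive and 12378 and 12048 in Lgr6-negative libraries. Low counts found only in Lgr6-positive replicate 1 thus come from the library with the most genes detected. A floor of 3 counts equals 0.368 and 0.380 normalized CPM (counts per gene scaled for library size and by TMM factors) in the Lgr6-positive libraries and 0.468 and 0.533 CPM in the Lgr6-negative libraries. Lgr6 itself had 172 and 655 counts in Lgr6-positive cells and 3 and 10 counts in Lgr6-negative cells, in the direction of the labels (log2 fold change 5.52, SE 1.47, edgeR adjusted p = 0.0510). The populations also differed in cell type markers. A list of 10 leukocyte genes summed to 1795 and 2151 CPM in Lgr6-positive and 29690 and 33690 CPM in Lgr6-negative libraries, with 10 of 10 lower in Lgr6-positive cells. A list of 10 epithelial genes summed to 3804 and 3571 CPM against 145 and 124 CPM, with 9 of 10 higher. The fibroblast list of 10 genes summed to 964 and 661 CPM against 84.7 and 127 CPM, with 4 higher, and the endothelial list of 10 to 1623 and 1862 CPM against 222 and 147 CPM, with 6 higher. Red cell genes (6 of 7 tested higher) and skin keratinocyte genes (3 of 4 tested higher) also followed the Lgr6-positive population. Of the red cell genes, Hbb-bt and Hbb-b2 had the same counts in each library and are not separate evidence. Over all 11661 tested genes, 4.49% were higher and 4.57% lower. The marker lists were chosen with earlier results of these data known. In pooled libraries, fewer cells of a type and less RNA per cell cannot be told apart, so each value below is a population average over such mixtures.

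**Figure D1:**
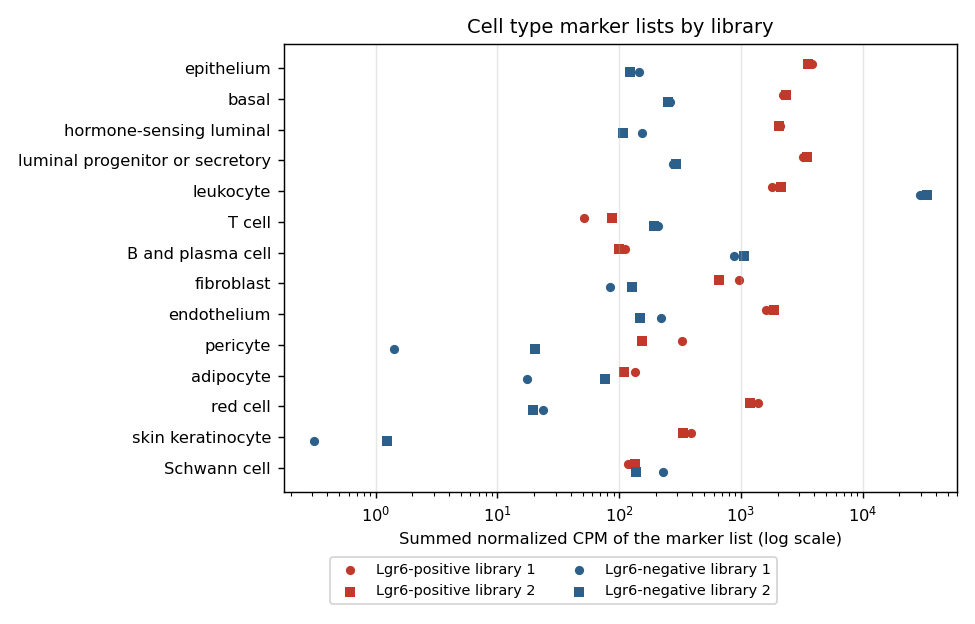
Summed normalized CPM (x axis, log scale) of each cell type marker list (y axis) in every library. Red points are Lgr6-positive and blue points Lgr6-negative libraries, with circles for library 1 and squares for library 2. Epithelial, stromal and vascular lists sit to the right in Lgr6-positive libraries, the leukocyte, B cell and T cell lists in Lgr6-negative libraries. Jchain made up 755 and 906 CPM of the B and plasma cell list's 885 and 1053 CPM in Lgr6-negative libraries. It was the 1 gene of 7 tested in that list that passed, and Ebf1 had higher values in Lgr6-positive libraries.

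Of the 52 Wnt genes, 27 had enough counts to be tested, 13 had counts but fell below the filter and 12 had no counts in any library. Among the 27, 5 were higher in Lgr6-positive cells and none was lower. The threshold was an adjusted p of 0.05 (edgeR's quasi-likelihood test, Benjamini-Hochberg). The 5 were the ligands Wnt5a, Wnt4 and Wnt5b, the co-receptor Lrp5 and the transcription factor Tcf7l2. They make up 18.5% of the tested members, beside 4.49% of all 11661 tested genes that were higher, and 4.57% of all tested genes were lower. At an unadjusted p under 0.05, 12 of the 27 members passed, 1 of them (Tcf7) in the lower direction. Of all 11661 tested genes, 2927 did so, 1264 of them in the lower direction. DESeq2 called 9 members higher (33.3%) and 1 lower (3.70%), beside 12.1% higher and 8.55% lower over all tested genes. In 15 of the 27, both Lgr6-positive libraries lay above both Lgr6-negative libraries, as they did in 30.0% of all tested genes. In 3 of the 27 both lay below, against 25.9% of all tested genes. The median log2 fold change was 1.74 over the 27 members and 0.10 over all tested genes. Of the 27, 9 passed the filter through their Lgr6-positive libraries and 3 through their Lgr6-negative libraries, so for these the filter itself favoured one direction. The 9 include the called ligands Wnt5a, Wnt4 and Wnt5b, which entered the test only through the population where they were high. The genes were also chosen with earlier results of these data known, so the share called is a description.

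**Figure D2:**
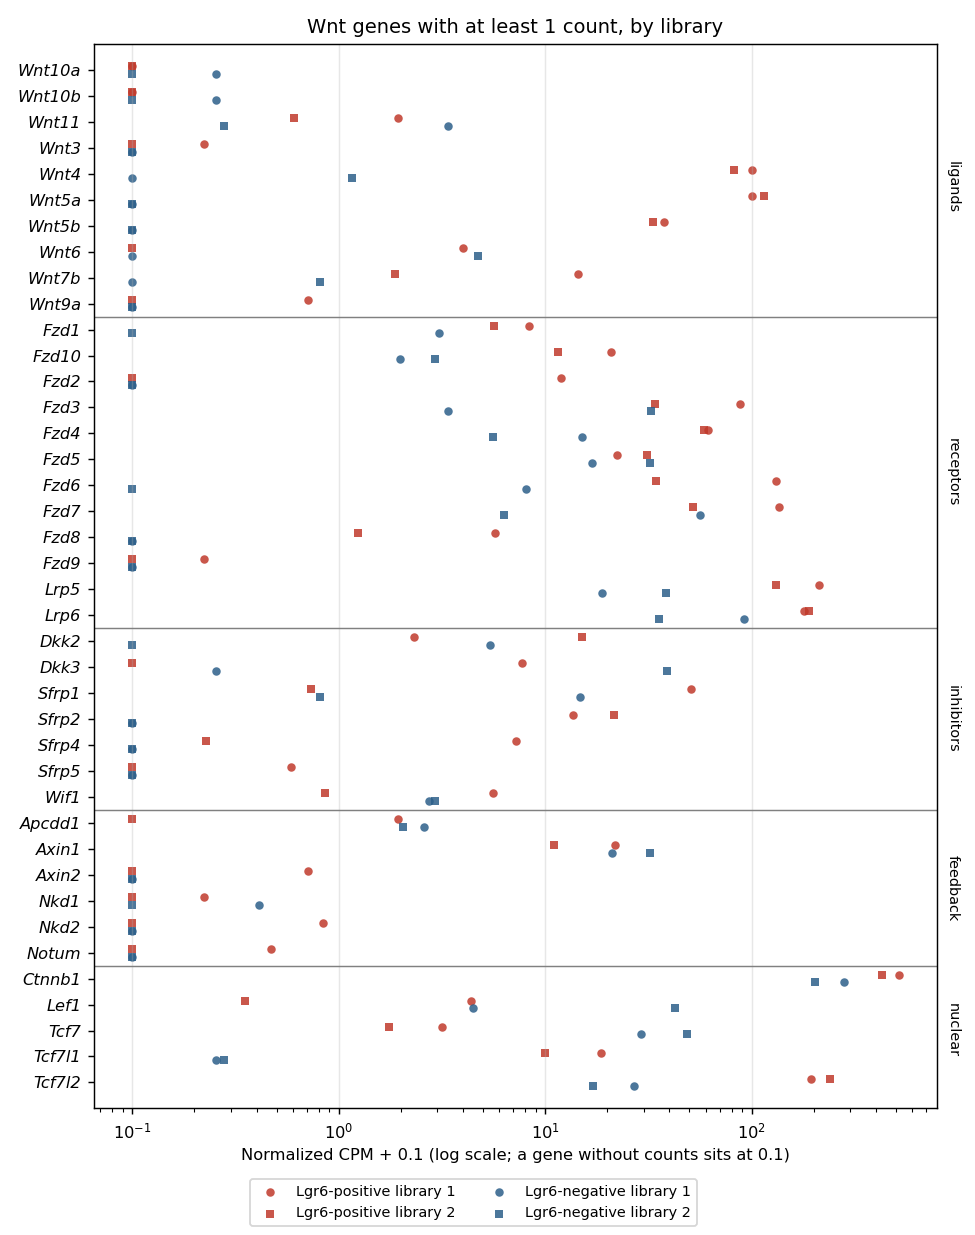
Normalized CPM plus 0.1 (x axis, log scale) of the 40 Wnt genes with at least 1 count (y axis, grouped by role). Red marks Lgr6-positive and blue Lgr6-negative libraries, circles library 1 and squares library 2, and points at the left edge are libraries without counts. Wnt4, Wnt5a, Wnt5b, Lrp5 and Tcf7l2 show both red points clear of both blue points, while Tcf7 shows the opposite order.

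Wnt5a, Wnt4 and Wnt5b were higher in Lgr6-positive cells, and ligand transcripts as a whole were close to the floor in Lgr6-negative cells. All ligands together had 2115 and 1840 counts in Lgr6-positive libraries and 23 and 37 counts in Lgr6-negative libraries. Wnt5a, on chromosome 14 from 28504750 to 28527448 (GRCm38, plus strand), had 100.7 and 115 CPM in Lgr6-positive libraries and no counts in either Lgr6-negative library. Both Lgr6-positive libraries were thus at a similar level, and against 3 counts per library Wnt5a was at least 215-fold higher (edgeR adjusted p = 0.0028). Wnt5b, a close relative of Wnt5a on chromosome 6 from 119432531 to 119544347 (minus strand), was at 37.6 and 33.3 CPM in Lgr6-positive libraries and had no counts in Lgr6-negative libraries. It was at least 70.9-fold higher (adjusted p = 0.0234). Leaving out any 1 library moved these bounds between 201-fold and 230.4-fold for Wnt5a and between 66.5-fold and 75.8-fold for Wnt5b. With no counts in Lgr6-negative libraries, leaving out 1 of those could change only the floor. Wnt4, on chromosome 4 from 137277489 to 137299726 (plus strand), had 817 and 651 counts in Lgr6-positive libraries and 0 and 6 counts in Lgr6-negative libraries, or 91.3 ± 12.5 CPM against 0.533 ± 0.754 CPM (mean ± SD, n = 2 each). Its log2 fold change was 7.41 (SE 1.52, adjusted p = 0.0187), and since all 6 Lgr6-negative counts came from replicate 2, without that library Wnt4 was at least 195-fold higher. In the same libraries Pgr, the progesterone receptor gene, was at 129 and 198 CPM in Lgr6-positive and 0.312 and 1.24 CPM in Lgr6-negative cells. The hormone-sensing luminal list of 8 genes, which holds Pgr, summed to 2109 and 2057 CPM against 154 and 107 CPM, with 5 of 8 higher and no gene at 0 over a population. Esr1, Ly6a and Areg of that list did not pass. Other epithelial lists moved the same way. Basal genes (4 of 10 higher) summed to 2210 and 2360 CPM against 259 and 250 CPM. Luminal progenitor or secretory genes (6 of 8 tested higher) summed to 3256 and 3483 CPM against 276 and 295 CPM. The part of any of these cell types in the Wnt4 result was not tested.

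Relative to gene length, Wnt4 took the largest share of ligand transcripts in Lgr6-positive cells. On the scale of CPM per kb of exon, Wnt4 made up 42.4% and 41.5% of the summed ligand level in the Lgr6-positive libraries, Wnt5b 25.2% and 26.5%, and Wnt5a 22.9% and 31.0%. Without division by length, Wnt4 was at 100.2 and 82.5 CPM and Wnt5a at 100.7 and 115 CPM, so the order of these 2 depends on the exon lengths used. Shares of Wnt5a and Wnt5b lay within the difference between libraries, so their order is not settled. Shares in Lgr6-negative libraries rest on the 23 and 37 counts given above, of which 21 were Wnt11 in replicate 1 and 26 were Wnt6 in replicate 2, and are not read further.

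The other ligands did not pass. Wnt7b, which acts through beta-catenin in several epithelia, had 117 and 14 counts in Lgr6-positive libraries and 0 and 4 counts in Lgr6-negative libraries (log2 fold change 4.45, SE 2.47, adjusted p = 0.322). Wnt11, a ligand of the pathway without beta-catenin, had 15 and 4 counts against 21 and 1 counts (log2 fold change -0.55, SE 2.03, adjusted p = 0.919). Wnt6 had 32 and 0 counts against 0 and 26 counts, so its value rested on 1 library in each population (log2 fold change -0.23, SE 2.59, adjusted p = 0.978). Below the filter, Wnt9a had 5 and Wnt3 had 1 count in Lgr6-positive replicate 1, while Wnt10a and Wnt10b had 1 count each in Lgr6-negative replicate 1. No counts were found for Wnt1, Wnt2, Wnt2b, Wnt3a, Wnt7a, Wnt8a, Wnt8b, Wnt9b and Wnt16. These include Wnt1, known in the mouse as an oncogene of mammary tumours, and Wnt3a, widely used to activate beta-catenin in culture. A transcript at less than the floor would not have been detectable at this depth.

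Upstream sequences of Wnt4 and Wnt5b are shown since these ligands passed the test. They were searched for a single form of the core motif that TCF/LEF factors recognise, and other forms were not searched. They come from RefSeq (GRCm38.p6), 5′ to 3′ on the gene's strand, lie before an annotated start and leave out bases that GENCODE M21 places in an exon, which shortens the stretch of Wnt4 to 104 bases. The motif searched was CTTTGA on either strand, printed in capitals, over 250 bases before each start.
Wnt4 (chr4:137277385-137277488, plus strand): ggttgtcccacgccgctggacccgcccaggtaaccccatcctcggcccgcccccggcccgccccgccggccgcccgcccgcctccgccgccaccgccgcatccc
Wnt5b, start 1 (chr6:119544348-119544597, minus strand): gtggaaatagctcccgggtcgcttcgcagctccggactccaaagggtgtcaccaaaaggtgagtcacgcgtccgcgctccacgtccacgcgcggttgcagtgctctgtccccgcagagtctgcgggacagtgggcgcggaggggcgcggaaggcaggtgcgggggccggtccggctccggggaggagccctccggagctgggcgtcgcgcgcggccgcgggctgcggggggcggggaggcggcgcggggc
Wnt5b, start 3 (chr6:119449387-119449636, minus strand): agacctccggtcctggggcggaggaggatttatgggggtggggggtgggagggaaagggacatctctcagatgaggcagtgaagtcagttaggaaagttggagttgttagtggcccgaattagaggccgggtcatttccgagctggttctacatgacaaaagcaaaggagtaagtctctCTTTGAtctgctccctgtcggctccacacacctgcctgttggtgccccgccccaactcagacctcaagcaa
The 250 bases before Wnt4 and before starts 1 and 2 of Wnt5b held no CTTTGA, while those before start 3 of Wnt5b held 1 match, beginning 71 bases before that start. Of all 32851 upstream windows in the table, 13.8% held a match, against 6 of 44 windows (13.6%) of the 35 Wnt genes matched there. The content of G and C was 85.2% before Wnt4 and 75.2%, 53.2% and 55.6% before starts 1, 2 and 3 of Wnt5b, against a median of 52.4% over all windows. A match describes letters and is not a bound site.

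**Figure D3:**
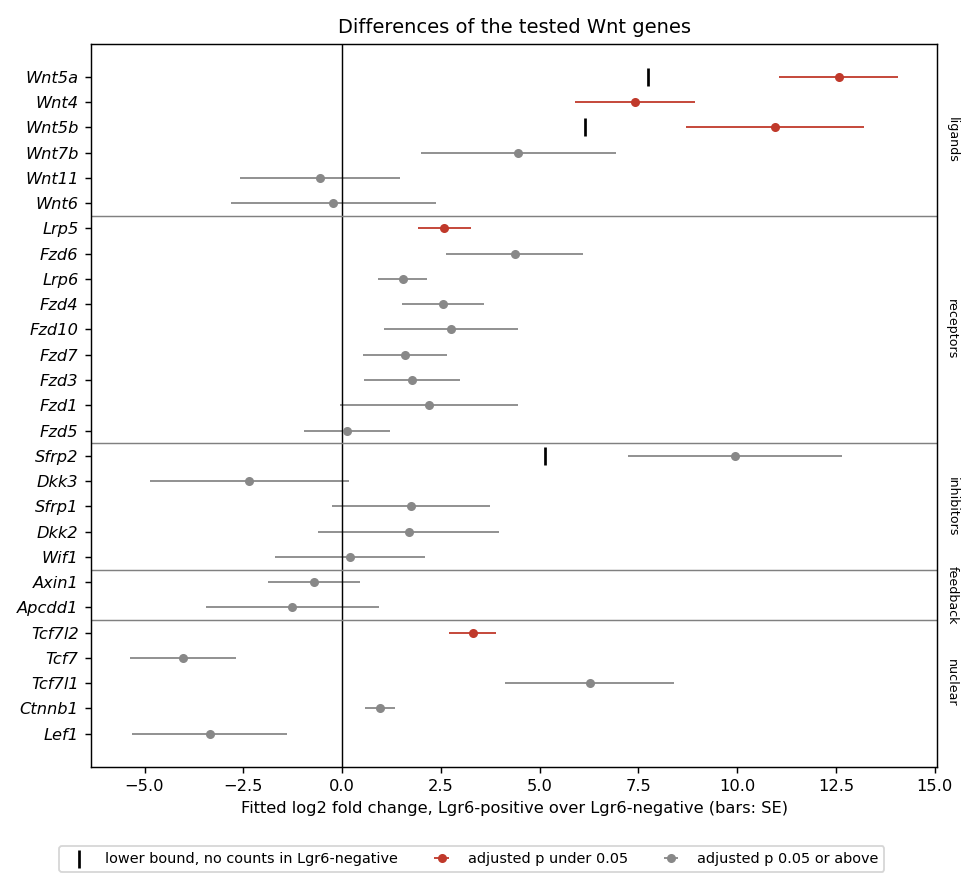
Fitted log2 fold change of Lgr6-positive over Lgr6-negative (x axis, bars are 1 SE) for the 27 tested Wnt genes (y axis, grouped by role). Red points passed the adjusted p threshold, grey points did not, and black ticks are lower bounds for Wnt5a, Wnt5b and Sfrp2, which had no counts in Lgr6-negative libraries. Receptors all have positive estimates, as do 6101 of all 11661 tested genes. Tcf7 and Lef1 lie left of 0 while Tcf7l1 and Tcf7l2 lie right of it.

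Of the receptors, 9 of 12 were tested and 1, Lrp5, was higher in Lgr6-positive cells, while the other 8 did not pass. All 9 had positive log2 fold changes, with a median of 2.20, as did 6101 of all 11661 tested genes, whose median was 0.10. For Fzd1 and Fzd6, which passed the filter through their Lgr6-positive libraries, the filter itself favoured this sign. The estimate of Fzd5 became negative without replicate 2 of the Lgr6-positive or replicate 1 of the Lgr6-negative population. The co-receptor gene Lrp5, on chromosome 19 from 3584828 to 3686564 (minus strand), was at 211 and 132 CPM in Lgr6-positive libraries and 18.7 and 38.2 CPM in Lgr6-negative libraries, so the groups did not overlap. Its log2 fold change was 2.59 (SE 0.66, adjusted p = 0.0442). Lrp5 missed the threshold when replicate 1 of either population was left out, with a log2 fold change of 2.20 (adjusted p = 0.0957) for the Lgr6-positive and 2.15 (0.119) for the Lgr6-negative one. It also missed in limma-voom (0.0534), and the lowest adjusted p over the alternatives was 0.00134. Lrp6, its partner with the same role, was at 179 and 189 CPM against 91.9 and 35.4 CPM (log2 fold change 1.53, SE 0.61, adjusted p = 0.156). Per kb of exon, Lrp5 took 62.4% and 49.4% of the summed level of both co-receptors in Lgr6-positive libraries and 22.2% and 60.3% in Lgr6-negative libraries, and these ranges overlap.

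Among Frizzled genes, which encode the receptors that bind Wnt proteins directly, none passed. Fzd6 had 1070 and 272 counts in Lgr6-positive libraries and 51 and 0 counts in Lgr6-negative libraries. With a log2 fold change of 4.37 (SE 1.73) it had an adjusted p of 0.151, but it passed under 5 of 12 alternatives, in a range from 8.39e-05 to 0.309. The lowest was found when Lgr6-negative replicate 1 was left out, which leaves no Lgr6-negative counts and a bound of at least 155-fold higher. Fzd4, known as the receptor of norrin in blood vessels, was nearly equal in both Lgr6-positive libraries, at 61.3 and 58.7 CPM, and lower in Lgr6-negative libraries, at 14.98 and 5.51 CPM (log2 fold change 2.55, SE 1.04, adjusted p = 0.164). The endothelial list summed to 1623 and 1862 CPM against 222 and 147 CPM in these libraries, with no member at 0 over a population, and its part in the Fzd4 values was not tested. Fzd10 was at 20.7 and 11.4 CPM against 1.87 and 2.84 CPM (log2 fold change 2.76, SE 1.69, adjusted p = 0.377).

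Fzd7, a Frizzled gene of basal mammary cells in the mouse, was at 135 and 52.0 CPM in Lgr6-positive and 55.9 and 6.22 CPM in Lgr6-negative libraries, which overlap (log2 fold change 1.59, SE 1.05, adjusted p = 0.420). Of 12 alternatives it passed in 1, with Lgr6-negative replicate 1 left out (3.89, adjusted p = 0.0402, in a range up to 0.784). Fzd3, known for its part in planar polarity and axon guidance, was at 88.2 and 34.1 CPM against 3.28 and 32.5 CPM, which come close without overlapping (adjusted p = 0.436). Fzd5 was at 22.2 and 30.9 CPM against 16.9 and 32.0 CPM (log2 fold change 0.12, SE 1.08, adjusted p = 0.972), and Fzd1 at 8.22 and 5.58 CPM against 2.96 and 0 CPM (adjusted p = 0.639). Below the filter, Fzd2 had 96 and 0 counts in Lgr6-positive libraries, Fzd8 had 46 and 9 and Fzd9 had 1 and 0, and all 3 had none in Lgr6-negative libraries. Per kb of exon, Fzd7 held 33.6% and 29.0% of the summed Frizzled level in Lgr6-positive libraries, followed by Fzd6 at 30.7% and 18.1% and Fzd4 at 10.3% and 22.1%, an order that changed between the libraries. In Lgr6-negative libraries Fzd7 held 61.1% and 13.4% and Fzd5 held 12.1% and 45.2%.

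Of the 9 secreted inhibitors, 5 were tested and none passed, with 1 at an unadjusted p under 0.05. Sfrp2, which binds Wnt proteins outside the cell and is a known product of stromal fibroblasts, had 110 and 170 counts in Lgr6-positive libraries and none in either Lgr6-negative library. It was at least 35.0-fold higher, with an adjusted p of 0.0611 that passed under 5 of 12 alternatives, in a range from 6.19e-04 to 0.132. The fibroblast list summed to 964 and 661 CPM in Lgr6-positive and 84.7 and 127 CPM in Lgr6-negative libraries, with 4 of 10 higher and 6 that did not pass. Pdgfra and Col6a2 had no counts in Lgr6-negative libraries, while Pi16 was at 6.38 and 6.72 CPM in Lgr6-positive and 44.5 and 52.3 CPM in Lgr6-negative libraries (log2 fold change -2.88, adjusted p = 0.137). The list's part in the Sfrp2 values was not tested. Sfrp4 had 58 and 1 counts and Sfrp5 had 4 and 0 counts in Lgr6-positive libraries, with none in Lgr6-negative libraries.

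For the remaining inhibitors the replicates disagreed. Sfrp1 had 416 and 5 counts in Lgr6-positive and 94 and 4 counts in Lgr6-negative libraries (log2 fold change 1.74, SE 1.998, adjusted p = 0.683). Dkk2, which blocks Lrp co-receptors, had 18 and 118 counts against 34 and 0 counts (1.68, SE 2.29, adjusted p = 0.742). Dkk3, a family member whose action on Lrp receptors is debated, had 62 and 0 counts against 1 and 218 counts (-2.35, SE 2.52, adjusted p = 0.659). Wif1, which sequesters Wnt proteins, had 45 and 6 counts against 17 and 16 counts (0.19, SE 1.90, adjusted p = 0.975). Dkk1 and Dkk4 had no counts in any library. Each of these 4 tested genes changed the sign of its estimate when a single library was left out.

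Some members had counts in 1 library of a population and few or none in the other. Of 27 members with at least 30 counts in 1 Lgr6-positive library, 5 (18.5%) had at most 3 in the other, namely Wnt6, Fzd2, Sfrp4, Dkk3 and Lef1. Of 15 such members in Lgr6-negative libraries, 3 did so, namely Fzd6, Dkk2 and Dkk3. The same share was 13.5% in Lgr6-positive and 9.25% in Lgr6-negative libraries over all genes that reached 30 counts.

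Axin2, Nkd1, Nkd2, Notum and Sp5 had at most 6 counts in any library. Axin2, a scaffold of the complex that degrades beta-catenin and a common readout of the pathway, had 5 and 0 counts in Lgr6-positive libraries and no counts in Lgr6-negative libraries. Nkd2 had 6 and 0 counts and Notum, which removes the lipid from Wnt proteins, had 3 and 0 counts in Lgr6-positive libraries, with none in Lgr6-negative libraries. Nkd1 had 1 and 0 counts against 2 and 0 counts. Sp5, a transcription factor gene often induced by beta-catenin, had no counts in any library. No fold is given for these genes, and differences at such levels were not detectable at this depth. Other genes that feed back on the pathway were well above the floor in Lgr6-positive libraries, among them Rnf43 and Znrf3. Both encode enzymes that remove Frizzled receptors from the cell surface and were chosen here after their values were seen. Rnf43 had 164 and 784 counts in Lgr6-positive libraries and 4 and 36 counts in Lgr6-negative libraries (log2 fold change 4.09, SE 1.47, adjusted p = 0.121). Znrf3 had 320 and 887 counts against 95 and 122 counts (2.05, SE 0.93, adjusted p = 0.212), so neither passed.

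Both tested members of the feedback and scaffold group did not pass. Axin1, the scaffold that is not a common target of the pathway, was at 21.6 and 10.9 CPM in Lgr6-positive and 21.1 and 32.0 CPM in Lgr6-negative libraries, which overlap (log2 fold change -0.71, SE 1.17, adjusted p = 0.794). Apcdd1, a membrane inhibitor of Wnt signalling, had 15 and 0 counts against 16 and 11 counts (-1.26, SE 2.19, adjusted p = 0.806).

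In the TCF/LEF family, through which beta-catenin acts on genes, Tcf7l2 passed the threshold and Tcf7l1, Tcf7 and Lef1 did not. Tcf7l2 (also called TCF4), on chromosome 19 from 55741820 to 55933654 (plus strand), was at 194 and 238 CPM in Lgr6-positive libraries and 26.8 and 16.9 CPM in Lgr6-negative libraries. The groups lay far apart relative to their spread, with a log2 fold change of 3.30 (SE 0.59, adjusted p = 0.0112), and the call held under 12 of 12 alternatives. Tcf7l1 (also called TCF3), mostly a repressor, had 151 and 78 counts in Lgr6-positive libraries and 1 and 1 count in Lgr6-negative libraries. The ratio was 85.9 (95% counting interval 23.5 to 713), and its adjusted p of 0.104 missed the threshold, passing in DESeq2 (0.00722) and limma-voom (0.0435) in a range up to 0.358. Tcf7 (also called TCF1), a factor of T cells, was at 3.07 and 1.65 CPM in Lgr6-positive libraries and 29.2 and 48.7 CPM in Lgr6-negative libraries. Both Lgr6-positive libraries thus lay below both Lgr6-negative ones, but with a log2 fold change of -4.04 (SE 1.34) the adjusted p was 0.0978. Tcf7 passed under 1 of 12 alternatives (DESeq2, 0.00251), in a range up to 0.402. Lef1 was at 4.29 and 0.253 CPM against 4.37 and 42.5 CPM (-3.35, SE 1.95, adjusted p = 0.350), and its Lgr6-negative level rested on replicate 2.

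Per kb of exon, Tcf7l2 made up 77.6% and 89.5% of the summed TCF/LEF level in Lgr6-positive libraries, against 20.8% and 7.59% in Lgr6-negative libraries. Tcf7 made up 4.10% and 2.07% against 75.6% and 73.2%. Tcf7l1 took 16.6% and 8.30% against 0.270% and 0.179%, and Lef1 took 1.72% and 0.0950% against 3.38% and 19.1%. These shares depend on the length of all annotated exons, 2.625 kb for Tcf7 and 8.775 kb for Tcf7l2. Without division by length, Tcf7 was at 29.2 and 48.7 of a summed 60.5 and 108 CPM in Lgr6-negative libraries. There Tcf7l2 was at 26.8 and 16.9 CPM and Lef1 at 4.37 and 42.5 CPM. Within this family the shares of Tcf7l2, Tcf7, Tcf7l1 and Lef1 did not overlap between the populations. For Lef1, the Lgr6-negative libraries differed more from each other than the nearest libraries of the populations did. Shares within a library do not depend on the scaling between libraries, though they sum to 100% and so are not independent of each other. No test was run on the shares, and how often shares in other gene families separate in this way was not counted.

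**Figure D4:**
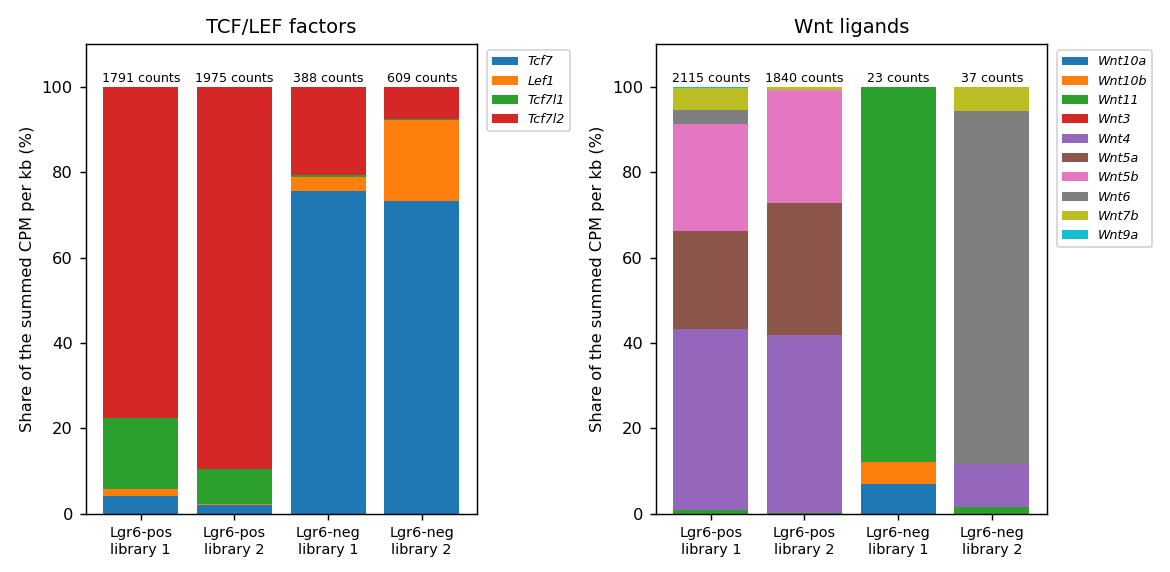
Share of the summed CPM per kb of exon (y axis, percent) taken by each gene of the TCF/LEF family (left) and of the Wnt ligands (right) in each library (x axis). Numbers above the bars are the summed counts. Tcf7l2 takes 77.6% and 89.5% of the TCF/LEF level in Lgr6-positive libraries and Tcf7 takes 75.6% and 73.2% in Lgr6-negative libraries, while ligand shares in Lgr6-negative libraries rest on 23 and 37 counts.

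Since Tcf7 is a factor of T cells, markers of these cells are given beside it. The T cell list of 12 genes summed to 51.1 and 87.8 CPM in Lgr6-positive libraries and 207 and 194 CPM in Lgr6-negative libraries, and none of the 9 tested passed. Cd3e, which encodes a chain of the T cell receptor complex, was at 7.11 and 0 CPM against 70.4 and 65.4 CPM. Cd3g, Cd4, Cd8a, Cd8b1 and Zap70 had no counts in Lgr6-positive libraries, while no gene of the list was at 0 over the Lgr6-negative population. Bcl11b and Il7r, which other cells also express, were the members with higher values in Lgr6-positive cells, at 6.13 and 7.60 against 0.312 and 0 CPM for Bcl11b and 32.9 and 57.4 against 17.2 and 16.7 CPM for Il7r. Il7r thus made up most of the list's sum in Lgr6-positive libraries. Lck was at 0.123 and 19.1 CPM against 34.8 and 2.67 CPM. The part of T cells in the Tcf7 and Lef1 values was not tested.

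The upstream sequence of Tcf7l2, the nuclear effector that passed, is shown in the same way. It covers chr19:55741560-55741809 of GRCm38.p6 on the plus strand, before the first of 2 starts.
Tcf7l2, start 1: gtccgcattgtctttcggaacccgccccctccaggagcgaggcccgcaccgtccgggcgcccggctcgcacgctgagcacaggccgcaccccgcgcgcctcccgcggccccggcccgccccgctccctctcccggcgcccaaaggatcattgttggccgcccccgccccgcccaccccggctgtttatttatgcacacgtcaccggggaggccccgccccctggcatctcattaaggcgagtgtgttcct
No CTTTGA was found on either strand of this window or of the one before start 2, and other forms of the motif were not searched. Its content of G and C was 72.8%.

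Ctnnb1, the gene of beta-catenin, was at 515 and 426 CPM in Lgr6-positive libraries and 282 and 203 CPM in Lgr6-negative libraries, without overlap. With a log2 fold change of 0.96 (SE 0.38) the adjusted p was 0.150, and it passed under none of the 12 alternatives. Ctnnb1 also takes part in cell adhesion through cadherins, and its transcript level does not measure the protein. Exons of other genes, mostly on the opposite strand, cover 15.1% of its exonic bases, so some counts may belong to a neighbour. The same limit holds for other genes given here, among them Fzd5 (17.8%), Sfrp2 (16.1%), Lef1 (13.7%) and the target gene Ccnd1 (23.4%).

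Of 76 other genes of the pathway in the table, 57 were tested, with 7 higher (12.3%), 1 lower and 49 that did not pass, beside 4.49% higher and 4.57% lower over all tested genes. Their median log2 fold change was 1.60, against 0.10 over all tested genes. Among the 7, Vangl1, Prickle1 and Gpc4 had no more than 1 count in Lgr6-negative libraries and entered the test only through the population where they were high. These genes were also chosen with earlier results of these data known, so the share called is a description. Genes of planar polarity, the branch of Wnt signalling that orients cells within a sheet, gave 3 of the 7, out of 11 tested, with 8 that did not pass. Celsr2, an atypical cadherin, was at 273 and 290.4 CPM in Lgr6-positive and 4.52 and 24.9 CPM in Lgr6-negative libraries (log2 fold change 4.26, SE 0.82, adjusted p = 0.0148). Vangl1 was at 55.7 and 28.4 CPM and had no counts in Lgr6-negative libraries, at least 83.9-fold higher. Prickle1 had 391 and 539 counts against 1 and 0 counts, a ratio of 697 (95% counting interval 125 to 27578). Celsr3 had the opposite order, with no counts in Lgr6-positive libraries and 154 and 82 counts in Lgr6-negative libraries, at least 51.6-fold lower, but its adjusted p of 0.0508 missed the threshold and passed under 8 of 12 alternatives, in a range from 2.03e-04 to 0.139. The formin gene Daam2 had 154 and 368 counts against 3 and 0 counts, a ratio of 130.5 (95% counting interval 44.4 to 635), and did not pass (adjusted p = 0.0625).

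Among reported target genes, Ccnd1, the cyclin D1 gene, was at 303 and 258 CPM against 35.4 and 14.2 CPM (log2 fold change 3.50, SE 0.62, adjusted p = 0.0105). Tbx3, a transcription factor of mammary development, was at 215 and 158 CPM against 0.468 and 8.35 CPM (5.41, SE 1.17, adjusted p = 0.0237). Cd44, a hyaluronan receptor that leukocytes also carry, was the gene that fell, with 296 and 394 CPM against 2181 and 2130.4 CPM (-2.64, SE 0.28, adjusted p = 0.0013). Myc (2.004, SE 0.58, adjusted p = 0.0664) and the protein C receptor gene Procr (5.80, SE 1.77, adjusted p = 0.0772) did not pass. All these targets respond to other signals too.

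The other 2 genes that rose encode surface proteins. Gpc4, a glypican that binds Wnt proteins, was at 28.1 and 18.6 CPM with no counts in Lgr6-negative libraries, at least 46.6-fold higher (adjusted p = 0.0448), but not with Lgr6-negative replicate 1 (0.0670) or 2 (0.0665) left out. Lgr4, a relative of Lgr6, was at 48.1 and 125 CPM against 4.99 and 7.29 CPM (log2 fold change 3.81, SE 0.99, adjusted p = 0.0472). Lgr4 passed under 8 of 12 alternatives, and its highest adjusted p was 0.294, with Lgr6-positive replicate 2 left out. Ror1, a receptor for Wnt5a, was at 13.5 and 75.8 CPM against 0 and 0.711 CPM (6.94, SE 1.94, adjusted p = 0.0601). It passed under 7 of 12 alternatives in a range from 9.86e-05 to 0.366.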

How the data were processed

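RNA sequencing libraries of Lgr6-positive and Lgr6-negative mouse mammary cells (2 each) were grouped by the titles and cell type labels, since the shared protocol text names only the positive sort. Expected counts, unscaled for depth, are what the authors deposited. Per the submitters' processing notes, RSEM 1.2.22, STAR 2.4.2a and mm10 were used. For the annotation and strand setting, nothing is stated in these sources, so reads of overlapping antisense genes cannot be separated.

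Counts were rounded to whole numbers and tested over the whole table with edgeR 4.0.16 (R 4.3.3): TMM scaling, filterByExpr (minimum count 10, minimum total 15, 11661 of 24442 genes kept), glmQLFit and glmQLFTest on the 2 populations without covariates, and Benjamini-Hochberg adjustment. Each SE was derived from the log2 fold change and its F statistic. Positive fold changes mean higher in Lgr6-positive cells. A gene without counts in a population is given as a bound against 3 counts per library, and one with 1 to 3 counts as a ratio with an exact 95% counting interval. Such bounds and intervals cover counting error only. Replicates differed beyond counting noise (chi-square per degree of freedom 88.3 for Lgr6-positive libraries, 73.0 for Lgr6-negative ones). Exon lengths and overlaps came from GENCODE M21 (GRCm38, also called mm10). DESeq2 1.42.0 and limma-voom (limma 3.58.1) were alternatives, with other scalings and filters, a replicate block and each library left out.

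The Wnt genes, pathway genes and marker lists were chosen with earlier results of these data known. Every member with a count is named. Full statistics go to members past the threshold and to up to 5 tested members of each role by smallest p, and 8 called and 6 further pathway genes are named by smallest p. Promoter sequences cover members past the threshold that the RefSeq table holds.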

Additional observations from a re-analysis of the deposited data

How the results depend on the processing

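The calls of Wnt5a, Wnt4, Wnt5b and Tcf7l2 held under 12 of 12 alternatives, and that of Lrp5 under 9. Between 5 and 6 members were higher when a library was left out, 5 under each other scaling, 7 without a filter, 6 under the stricter filter and in limma-voom, and 9 in DESeq2, with 1 lower in DESeq2 and 0 elsewhere. With the replicate number as a block, 6 members were higher and 0 lower and 11 other pathway genes were higher. Deviations of same-numbered libraries correlated at -0.0202, a single value that cannot show whether the numbers pair the samples. Other pathway genes higher were 14 without a filter, 18 in DESeq2 and 6 to 13 when a library was left out. Lower ones were 2 with DESeq2's size factors, without Rn45s, under both other filters, in DESeq2 and in limma-voom, and 1 to 2 with a library left out. Over all genes, calls were 967 higher and 854 lower without a filter, 1407 and 997 in DESeq2, and 678 to 956 and 540 to 1030 with a library left out. Library size alone gave 628 higher and 327 lower, so 65.8% of calls were higher against 49.6%, and the median log2 fold change moved up by 0.46. Estimates changed sign for Dkk2 (-0.29 lowest, 8.96 highest), Dkk3 (-10.02 to 4.44), Fzd5 (-0.28 to 0.64) and Sfrp1 (-3.57 to 5.12) when libraries were left out. Wif1 was at -0.40 in limma-voom, -0.39 with the block and -1.83 to 0.97 otherwise. Wnt11 was at 0.14, 0.18 and -1.74 to 2.59, and Wnt6 at 0.38 under library size alone and -6.95 to 6.87 otherwise. Causes of these changes were not tested. Of the 25 members below the filter, 12 had no counts, and the other 13 entered the test without a filter, where 40 members were tested.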

Other observations

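Several ligand genes lie next to each other in the genome. Within 100 kb of each other on GRCm38 are Wnt10a and Wnt6 on chromosome 1 (6.19 kb apart), Wnt1 and Wnt10b on chromosome 15 (11.7 kb), Wnt3a and Wnt9a on chromosome 11 (16.2 kb) and Wnt3 and Wnt9b on chromosome 11 (24.3 kb). None of these 8 genes was called, and Wnt6 is the one among them that passed the filter. The called ligands lie on their own, Wnt4 on chromosome 4, Wnt5a on chromosome 14 and Wnt5b on chromosome 6, while Lrp5 and Tcf7l2 both lie on chromosome 19, far apart.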
